A study of Saccharomyces cerevisiae with 24 samples.

Results

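The 47 genes described here code for proteins of the large ribosomal subunit of budding yeast and carry an intron. They were taken by a list of open reading frame names that leaves out the snoRNA hosts RPL7A and RPL7B and the self-regulated genes RPL30 and RPL22A. All 47 were found among the 5674 genes of the array, each with a value in all 24 columns. They form 21 pairs of duplicated copies and 5 genes with no second copy on the list, RPL25, RPL28, RPL32, RPL36A and RPL39. Members and lists were named with earlier results of these data known, though the list itself uses no measured value.

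Splicing removes introns from the transcript while RNA polymerase II is often still on the gene. The spliceosome is built stepwise: U1 meets the 5' splice site, BBP and Mud2 mark the branch point, U2 joins there, and the U5 helicase Brr2 and the ATPase Prp2 then remodel the complex for catalysis. Few yeast genes have an intron, but ribosomal protein genes are rich in them and are among the most heavily transcribed genes of growing cells, so they carry much of the cell's splicing work.

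The study measured by chromatin immunoprecipitation on arrays (ChIP-chip) how much of each gene came down with a tagged factor or with RNA polymerase II. Each value is a log2 ratio for a spotted gene. Its direction is not stated but is probably the immunoprecipitate divided by the input extract, and a value of 1 stands for a 2-fold ratio. There were 12 profiles of unperturbed cells: Prp40-9myc, BBP-3HA, Mud2-13myc, Lea1-13myc, Prp11-13myc, Prp5-9myc, Prp2-13myc, Prp19-9myc, Brr2-13myc, Sub2-3HA, Spt5-9myc and RNA polymerase II. Cells grew in rich medium to an optical density of 0.6 (no medium is given for the BBP cells). Tags sat at the C-terminus of each tagged factor, at its own locus. No tag is named for the polymerase. The other 12 columns held Prp40-3myc cells in SC-URA medium as control, as spt5_194 mutant and after 80 µg/ml of the elongation inhibitor 6-azauracil for 30 minutes; Prp40-9myc without the cap-binding complex; Prp40-9myc and Mud2-13myc after a shortened fixation, with and without RNase; and Lea1-13myc and Brr2-13myc in SUB2 wild type and in the heat-sensitive SUB2_85 strain, all 4 grown in SC-HIS medium and held at 37C for 30 minutes after 5 minutes of warming.

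Each column merges 2 (the polymerase) to 6 (Sub2) biological replicates, joined by the authors before deposit. No spread between replicates could be had and no test was made, so counts of members are set beside the share of all genes that passed the same line. Robust SDs over all genes ran from 0.09 to 0.69, so a given log2 ratio is not equally rare in every column. For some columns the percentile among all genes is given beside it. The sign of 5 columns is not settled, because 3 pairs of columns had a Pearson correlation below -0.3 over all probes. The Mud2 profile and the 6-azauracil column gave -0.34. RNase-treated Mud2 gave -0.36 against spt5_194 and -0.32 against wild-type Lea1 at 37C. Spearman's rho over all probes was -0.40, 0.05 and 0.04 in that order, so only the first pair was negative by rank. As deposited, rho over the members was 0.58 for the Mud2 profile with Mud2 after short fixation. Against their control it was 0.61 for spt5_194 and 0.39 for 6-azauracil. It was 0.34 for Lea1 at 37C with its profile and -0.18 for RNase-treated with untreated Mud2. Values are given as deposited, and with the sign turned in the paragraphs concerned.

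**Figure D1:**
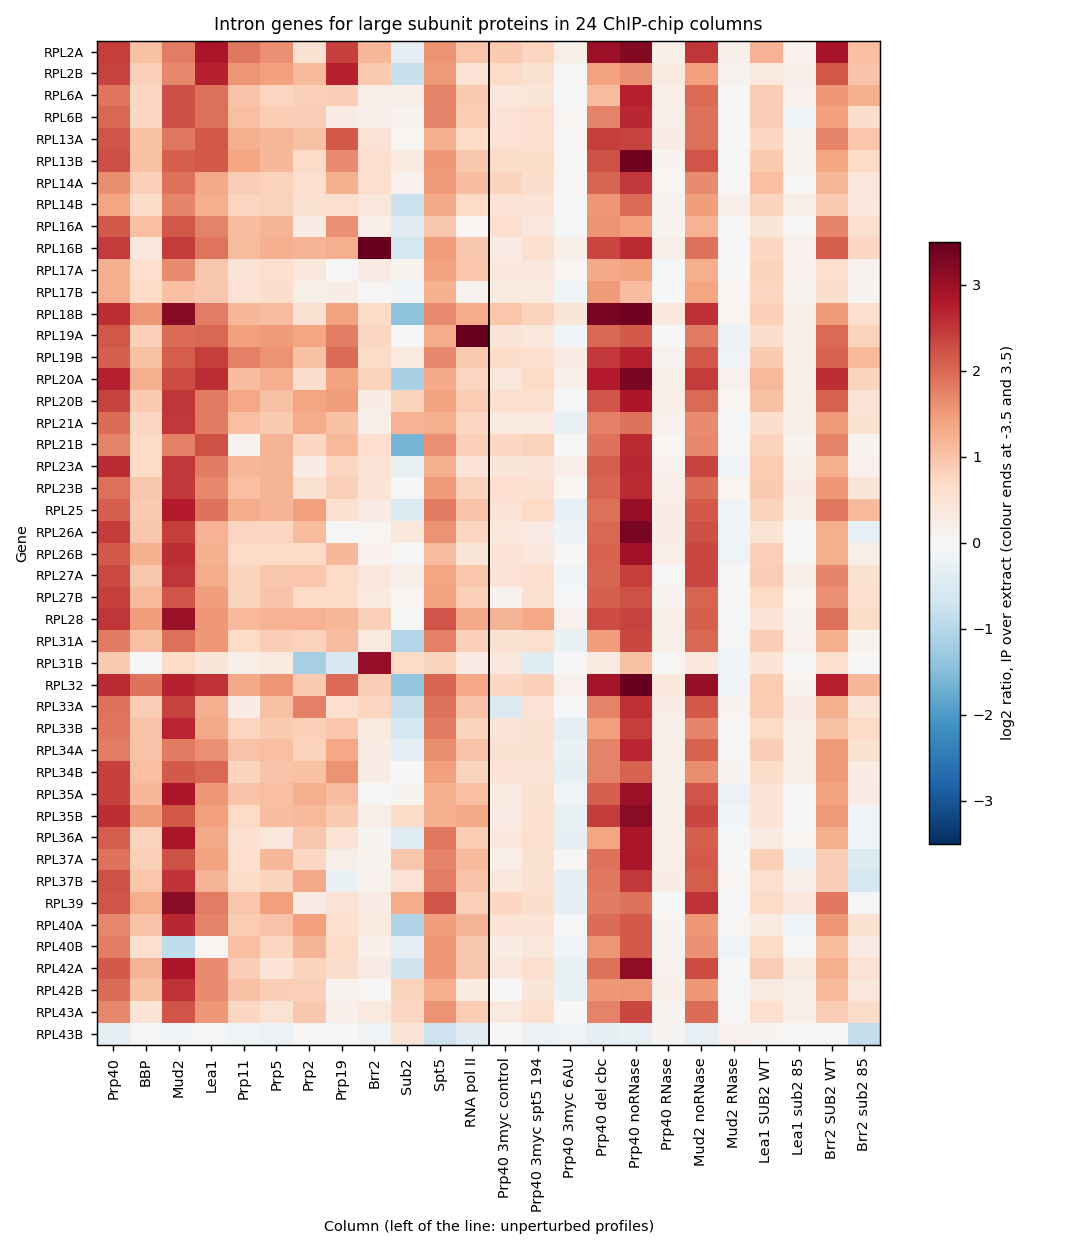
Log2 ratio of 46 members (rows) in each of the 24 columns, with the 12 unperturbed profiles left of the line. RPL43B is pale throughout, RPL16B and RPL31B stand out under Brr2, RPL19A stands out under RNA polymerase II, and the columns with 6-azauracil or RNase are pale for nearly all genes.

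For Prp40, a protein of the U1 snRNP, the members ran from -0.32 to 2.68 with a median of 2.14, at percentile 99.1 of all genes. At least a 2-fold ratio was reached by 45 of 47, against 3.39% of all genes. RPL20A (YMR242C) was highest with 2.68, and RPL32 (YBL092W) had 2.62. RPL43B (YJR094W-A, -0.32), RPL31B (YLR406C, 0.91) and RPL17A (1.24), whose protein lies at the rim of the exit tunnel, were lowest. Without RPL43B the lowest value would be 0.91, still far above the median of all genes at -0.05.

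Mud2 and BBP bind the branch point region together. Mud2 had a member median of 2.26, with 44 of 47 at 2-fold or more against 12% of all genes. Its median percentile was 97.5, and 37 members lay above the 95th percentile, which 4.99% of genes exceed. Among its highest members were RPL18B at 3.18 and RPL39, a small protein of the exit tunnel, at 3.17. At the low end stood RPL40B (-0.89), RPL43B (-0.09) and RPL31B (0.70). With the sign of the Mud2 column turned its median would be -2.26 and no member would reach 2-fold. BBP was lower in scale, with a median of 0.96 and 22 of 47 at 2-fold or more against 1.04% of all genes. Its median percentile of 98.9 was close to that of Prp40, since few genes of any kind reached 2-fold. RPL32 led with 1.91, RPL18B had 1.54, and RPL31B (0.01), RPL43B (0.03) and RPL16B (0.40) came last.

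Lea1, a protein of the U2 snRNP, had a median of 1.65, and 42 of 47 were at 2-fold or more against 3.28% of all genes. RPL2A (YFR031C-A, 2.86) and RPL2B (YIL018W, 2.68), which code for a protein near the peptidyl transferase centre, were highest, followed by RPL20A (2.58). RPL43B (-0.03), RPL40B (0.06) and RPL31B (0.42) were lowest. Prp11, of the SF3a part of the U2 snRNP, had a median of 0.99 with 22 of 47 at 2-fold or more against 1.08%. RPL2A again led with 1.85, ahead of RPL19B (1.77) and RPL2B (1.55). Prp5, an ATPase needed for U2 to join, had 1.02 and 25 of 47 against 1.24%, led by RPL2A (1.61), RPL19B (1.59) and RPL32 (1.55). RPL43B was the lowest member for Prp11 (-0.14) and Prp5 (-0.21).

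As deposited, the profiles of factors that act later had lower member medians than those of the factors above, by little for Prp19 and Prp2. The nearest medians among the factors above were 0.96 for BBP and 0.99 for Prp11. By median percentile Prp19 (97.1) was close to Mud2 (97.5). The order did not hold in the heated SUB2 wild type, where Brr2 had 1.48 and Lea1, with an unsettled sign, 0.78. Prp19, whose complex joins when the spliceosome is activated, had a median of 0.86 and 21 of 47 at 2-fold or more against 2.13%. RPL2B (2.71), RPL2A (2.38) and RPL13A (2.14) were highest, while RPL31B (-0.56) and RPL37B (-0.23) lay below zero. Prp2 had 0.84, with 17 of 47 against 3.81%. Here RPL33A (1.75), RPL40A (1.43) and RPL25 (1.42), a protein at the tunnel exit where the signal recognition particle docks, were highest, and RPL31B was lowest at -1.16. For Brr2 the median was 0.34, at percentile 86.4, and 3 of 47 reached 2-fold against 3.1% of all genes. These 3 were RPL16B (YNL069C, 4.91), RPL31B (3.09) and RPL2A (1.17).

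The transcription machinery gave another order. Spt5, which helps the polymerase to elongate, had a median of 1.49 and 44 of 47 at 2-fold or more against 6.79%, led by RPL28 (2.21) and RPL39 (2.20). RNA polymerase II had a median of 0.90, at percentile 90.0, with 10 of 47 against 8.51%. RPL19A stood at the upper limit of the scale for the polymerase, 6.64, but at 1.31 for Spt5. RPL43B was the lowest member for both, at -0.37 and -0.72. Sub2, an RNA helicase of splicing and export, had a median of -0.02, with 2 of 47 at 2-fold or more against 4.2%. RPL21B (-1.62) and RPL18B (-1.41) were among the lowest, and RPL39 was highest at 1.30.

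The 25 measured genes for large subunit proteins without an intron gave the closest comparison. Their polymerase median, 1.27, was above the members' 0.90, while their Spt5 median, 1.57, was close to the members' 1.49. For splicing factors the order was the other way round: 0.67 against 2.14 for Prp40, 0.41 against 2.26 for Mud2, 0.53 against 1.65 for Lea1 and 0.19 against 0.96 for BBP. The lists overlapped. Of the 25 genes without an intron, 6 were at 2-fold or more for Prp40 (highest 2.49), against 3.39% of all genes. For Mud2 it was also 6 (highest 2.55), against 12% of all genes. Prp19 (0.33 against 0.86) and Prp2 (0.49 against 0.84) had smaller gaps, and Brr2 had the higher median over genes without an intron (0.61 against 0.34). With the Mud2 sign turned both its medians would be negative, the members' the lower. The 34 measured intron genes for small subunit proteins lay close to the members, with 2.12 for Prp40, 2.19 for Mud2, 1.62 for Lea1 and 0.40 for Brr2. These are values set side by side, and no difference between the lists was tested.

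**Figure D2:**
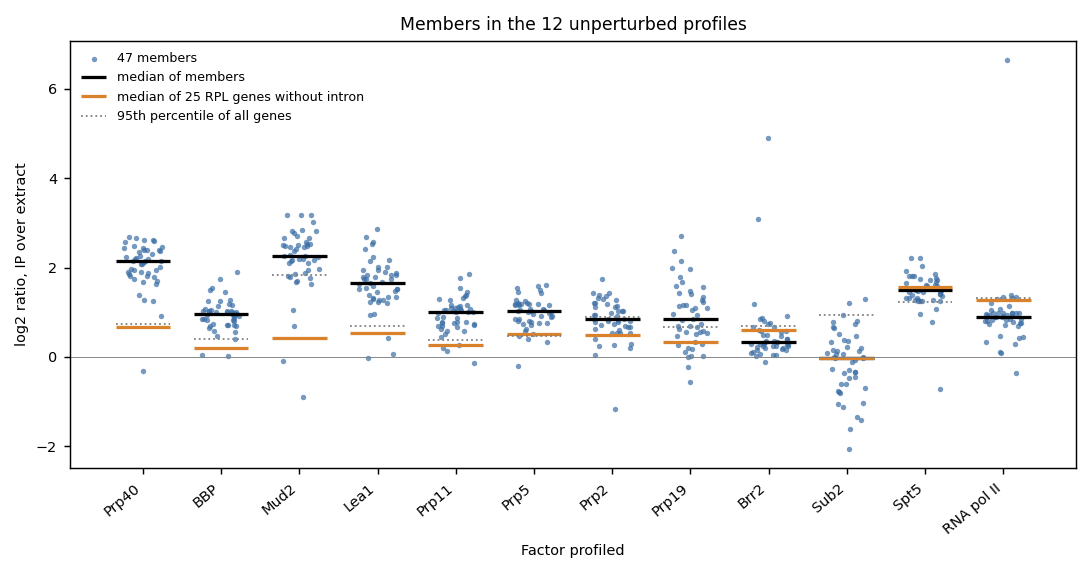
Log2 ratio of the 47 members (points) in the 12 unperturbed profiles, with their median, the median of 25 large subunit genes without an intron and the 95th percentile of all genes. Members lie mostly above the genes without an intron for Prp40, BBP, Mud2 and Lea1, and mostly at or below them for Brr2, Spt5 and RNA polymerase II.

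Members could also be ordered by what their proteins do. The 12 genes for proteins round the exit tunnel (RPL17, RPL19, RPL26, RPL31 and RPL35 copies, RPL25 and RPL39) had medians of 2.12 for Prp40, 0.72 for Prp11 and 0.28 for Brr2. The 5 genes for proteins near the catalytic centre or the tRNA exit site (RPL2A, RPL2B, RPL28, RPL42A and RPL42B) had 2.37, 1.13 and 0.84. The pair RPL40A and RPL40B, made as fusions with ubiquitin, had 1.75, 0.97 and 0.26. The remaining 28 genes had 2.14, 1.00 and 0.37. The catalytic group had the higher median than the exit tunnel group in 18 of 24 columns as deposited. The order was the other way for Sub2 (-0.35 against 0.11) and Prp2 (0.83 against 0.92). It was also the other way for Lea1 in wild type at 37C (0.45 against 0.70), whose sign is unsettled. The same held for Prp40 after short fixation (2.37 against 2.52) and without the cap-binding complex (1.93 against 1.96). Mud2 after short fixation had 2.09 against 2.16. The order in the Prp40 profile thus did not return for Prp40 after short fixation or without the cap-binding complex. It did return in the Prp40-3myc control (0.68 against 0.42) and for Prp40 with RNase (0.22 against 0.15). As deposited it also returned in spt5_194 (0.56 against 0.47) and with 6-azauracil (0.04 against -0.14), whose signs are unsettled. Ranges of the 3 larger groups overlapped for Prp40, Prp11 and Brr2. Within the exit tunnel group alone Prp40 ran from 0.91 (RPL31B) to 2.58 (RPL35B), so members of a group differed more than the groups did.

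Some factors ordered the members alike. Spearman's rho over the 47 members was 0.75 for Lea1 with Prp11, 0.74 for Lea1 with Prp5, 0.69 for Lea1 with Prp19 and 0.64 for Prp40 with BBP. It was 0.10 for Mud2 with Lea1 (negative with the Mud2 sign turned), 0.24 for Prp40 with the polymerase, 0.06 for Prp40 with Spt5 and -0.44 for Sub2 with Brr2. Leaving out RPL43B and RPL31B, 2 low genes in many columns, gave 0.72 for Lea1 with Prp11, 0.59 for Prp40 with BBP and 0.14 for Prp40 with the polymerase. These points share 1 array design and the DNA of copies, and genes are not independent replicates.

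Copies of a gene were more alike than unrelated members. Over the 12 profiles the mean absolute difference between copies had a median of 0.27 over 21 pairs, against 0.49 over the 1060 other pairs of members. In each of the 24 columns the median difference between copies was below that between other members, with ratios from 0.31 for Prp5 to 0.96 for the polymerase and for Lea1 in SUB2 wild type. RPL6A and RPL6B (0.09), RPL27A and RPL27B (0.12), RPL13A and RPL13B (0.18), RPL23A and RPL23B (0.20) and RPL17A and RPL17B (0.23) were the closest. The spots carry open reading frames, and DNA of 1 copy may bind the spot of the other. The part of this in the likeness of copies was not tested.

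The 5 pairs with the largest mean difference were RPL31 (1.24), RPL43 (1.10), RPL16 (0.75), RPL19 (0.69) and RPL40 (0.64). RPL43A and RPL43B code for a zinc-binding protein of the subunit, and their values differed in many columns. Whether the RPL43B spot reports its own gene was not tested, and its values lie near or below the median of all genes in most columns. RPL43A minus RPL43B was 2.00 for the Prp40 profile, 2.61 for Prp40 after short fixation and 2.09 for Prp40 without the cap-binding complex. For Mud2 it was 2.28 in the profile (negative with the sign turned) and 2.23 after short fixation, and for Spt5 2.29. RPL43B ran from -0.83 to 0.47 over the 24 columns with a median of -0.10, and RPL43A from -0.01 to 2.35 with a median of 0.68. Among all genes RPL43B stood at percentile 10.4 for Prp40, 7.13 for Spt5 and 23.9 for the polymerase, and its highest unperturbed percentile was 80.8, for Sub2.

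RPL31B was below RPL31A in most columns, by 0.91 for the Prp40 profile, 1.31 for Prp40 after short fixation, 1.14 without the cap-binding complex, 1.65 for Mud2 after short fixation and 1.24 for the Mud2 profile, where it would be above RPL31A with the sign turned. Both code for a protein of the tunnel rim. Among the profiles Brr2 and Sub2 went the other way, with RPL31A minus RPL31B at -2.75 and -1.69. The Brr2 difference did not return in the wild-type Brr2 column at 37C, where it was 0.70. That column also differs in medium and SUB2 strain background.

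For RPL16 and RPL40 the largest differences were smaller in another unperturbed column of the same factor. Those columns are not repeats: medium, temperature and SUB2 strain background differ for Brr2 and Lea1, and fixation for Mud2. RPL16B exceeded RPL16A by 4.68 for Brr2 in rich medium, with 4.91 against 0.22, but by 0.40 for Brr2 at 37C. RPL40A exceeded RPL40B by 3.54 for the Mud2 profile, with 2.65 against -0.89 (the order turns with the sign), while after short fixation Mud2 had 1.53 and 1.61. For Lea1 the same pair had 1.75 and 0.06 in rich medium and 0.31 and 0.67 at 37C. RPL19A exceeded RPL19B by 5.73 for the polymerase because it stood at the limit there. RPL21A and RPL21B were 2.84 apart for Sub2, with 1.21 and -1.62. The polymerase and Sub2 were profiled once, so no second column was there to set beside the RPL19 and RPL21 values.

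**Figure D3:**
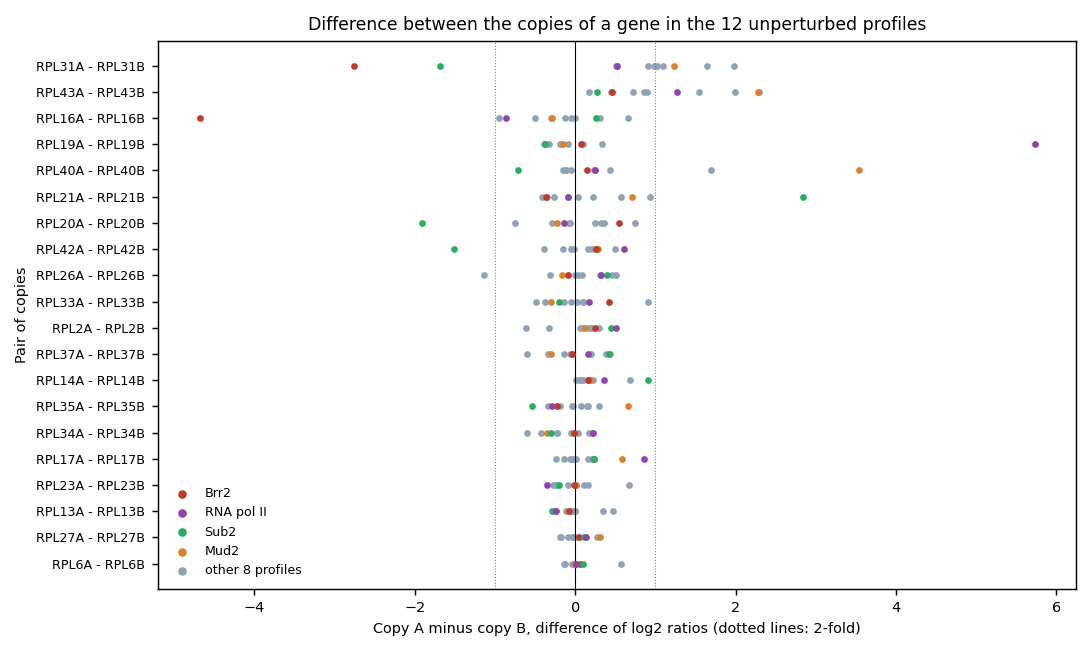
Copy A minus copy B, as a difference of log2 ratios, for 20 pairs in the 12 unperturbed profiles (points), with pairs ordered by their mean absolute difference. As deposited, RPL43A exceeds RPL43B in all 12, whereas for RPL16 (Brr2), RPL19 (RNA polymerase II) and RPL21 (Sub2) 1 profile lies far from the others.

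A guide to error came from factors profiled more than once without a perturbation. Prp40-9myc after short fixation had a member median of 2.55 against 2.14 in its profile. The difference per gene had a median of 0.57 and ran from -0.76 for RPL2B to 1.37 for RPL32, with 37 of 47 higher against 45.2% of all genes. Mud2-13myc had 2.02 after short fixation against 2.26, with a median difference of -0.24 (4.30 with the sign of the profile turned). Its extremes were RPL40A at -1.12 and RPL40B at 2.50. The Prp40-3myc control in SC-URA medium, with a shorter tag, had a median of only 0.48. In it 41 of 47 members were at least 2-fold lower than in the Prp40-9myc profile, against 3.02% of all genes, while genes for large subunit proteins without an intron had 0.49 and 0.67. The SD of a member over these 3 unperturbed Prp40 columns had a median of 1.07. Tag, medium and fixation differ among them and cannot be told apart.

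The spt5_194 mutant and 6-azauracil asked whether impaired elongation changes where Prp40 sits. In the control and in the mutant 1 of 47 reached 2-fold, RPL28 in each, against 0.952% and 1.06% of all genes. In the mutant the member median was 0.54 against 0.48 in the control, and the difference per gene had a median of 0.03. For large subunit genes without an intron these medians were 0.71 and 0.49, with a median difference of 0.17. For small subunit genes with an intron they were 0.53 and 0.51, with a median difference of 0.06. RPL33A, at -0.51 in the control and 0.51 in the mutant, was the 1 member at least 2-fold higher, against 0.705% of all genes, followed by RPL42B (0.43) and RPL27B (0.41). None was 2-fold lower, against 2.2%, and RPL31B (-0.80), RPL43B (-0.22) and RPL18B (-0.18) were the most negative. With the sign of the mutant column turned the median would be -0.54, the median difference -0.97, and 20 of 47 would be 2-fold lower, against 4.18% of all genes.

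With 6-azauracil the members lost their place above other genes. None reached 2-fold, against 0.916% of all genes. Their median was -0.04, at percentile 42.3, where the control had 0.48 at percentile 95.6. Of 47 members 46 were lower than in the control, against 45.4% of all genes, with a median difference of -0.55. RPL39 (-1.08) and RPL28 (-1.02) were the only members at least 2-fold lower, against 0.705%, and RPL34B had -0.84. RPL33A was higher by 0.44, and RPL16B (-0.11) and RPL43B (-0.15) were nearest to no difference. Intron genes for small subunit proteins had a median difference of -0.60, and large subunit genes without an intron -0.29. With the sign of the treated column turned the median difference would be -0.40 and 44 of 47 would be lower, against 47.7% of all genes. Both comparisons use the same control column, and in it RPL33A lay well below its copy RPL33B (0.45).

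Without the cap-binding complex, which holds the capped end of the transcript, Prp40-9myc had a member median of 1.92 against 2.14, with 45 of 47 at 2-fold or more against 3.23% of all genes. The difference per gene had a median of -0.15, and 31 of 47 were lower against 57.9% of all genes. Against Prp40-9myc after short fixation, the other unperturbed column, it was -0.57. No member differed 2-fold in either direction, against 0.763% lower and 0.0887% higher among all genes. RPL2B (-0.95), RPL6A (-0.78) and RPL36A (-0.76) were most negative. RPL18B (0.74) and RPL2A (0.57) were most positive. RPL2A and RPL2B thus parted, with 3.01 and 1.41 in the deletion against 2.43 and 2.37 in the profile. After short fixation, in cells with the complex, they stood at 3.21 and 1.60. All differences but those of RPL2B and RPL6A lay inside the range seen between the 2 unperturbed Prp40-9myc columns.

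RNase was used after a shortened fixation to ask whether Prp40 and Mud2 need RNA to stay on genes. For Prp40 the member median was 2.55 without and 0.19 with RNase, and members at 2-fold or more numbered 46 (4.92% of all genes) and 0 (0.3%). Of 47 members 45 were at least 2-fold lower with RNase, against 4.79% of all genes, with a median difference of -2.37. After quantile normalisation of the columns it was -0.68, with the treated level at 0.91. RPL32 went from 3.99 to 0.38, RPL13B from 3.37 to 0.09 and RPL20A from 3.33 to 0.24. Spearman's rho of the difference with the untreated value was -0.99 over the members. The order of members by difference thus mostly restates their untreated level. RPL17B (-1.08) and RPL31B (-0.98) had small differences from low starting values, and RPL43B alone was higher, by 0.37. Large subunit genes without an intron had a median difference of -0.71, from 0.73 to -0.03. Small subunit genes with an intron had -2.15, from 2.38 to 0.16.

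Mud2 had 2.02 without and 0.01 with RNase, with 45 (3.98% of all genes) and 0 (0.458%) members at 2-fold or more. Again 45 of 47 members were at least 2-fold lower, against 3.7% of all genes. The median difference was -2.03. With the sign of the treated column turned, 45 would still be 2-fold lower, against 4.32% of all genes. RPL32 went from 3.05 to -0.09, RPL39 from 2.52 to -0.04 and RPL18B from 2.57 to 0.07. Here rho of the difference with the untreated value was -0.97 over the members. RPL16A (-1.17) and RPL31B (-0.47) differed least among those lower, and RPL43B was higher by 0.44. Large subunit genes without an intron had -0.99, and small subunit genes with an intron had -1.81.

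The 2 treated columns differed in what was left. After RNase the Prp40 column was narrow, with a robust SD of 0.09 over all genes, and the small member ratios still lay at a median percentile of 96.9. There 28 of 47 were above the 95th percentile of all genes, which 4.99% of genes exceed, and rho over the members with the untreated column was 0.55. For Mud2 the median percentile was 52.1, no member was above the 95th percentile (5.01% of genes), and rho was -0.18, which would be positive with the sign of the treated column turned. This difference between factors was not tested.

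**Figure D4:**
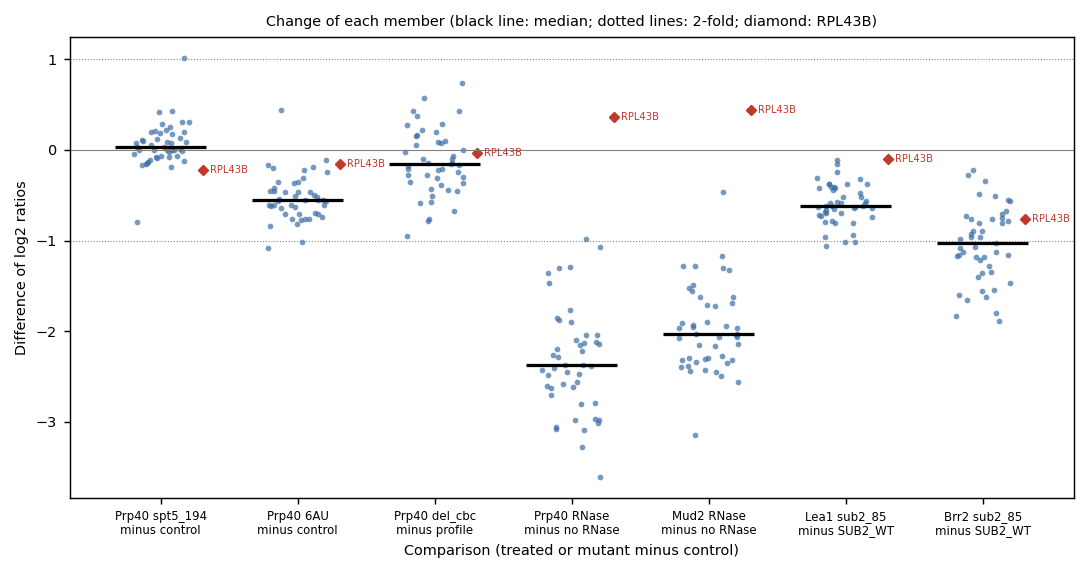
Difference of log2 ratios, treated or mutant minus control, for each member (points) in 7 comparisons, with the median as a black line and RPL43B as a diamond. With RNase 45 of 47 members lie below the line of 2-fold loss for each factor, and RPL43B alone lies above zero, while the spt5_194 and cap-binding columns spread round zero.

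The SUB2_85 strain was compared with wild type at 37C for Lea1 and Brr2. In wild type at 37C the members had a median of 0.78 for Lea1, at percentile 98.8, and in SUB2_85 0.16, at percentile 88.7. At 2-fold or more stood 4 in wild type (0.441% of all genes) and 0 in the mutant (0.67%). All 47 were lower in the mutant, against 51.8% of all genes, by a median of 0.61 on the log2 scale. RPL2A (-1.06), RPL14A (-1.02) and RPL37A (-1.01) were the 3 members at least 2-fold lower, against 0.335% of all genes, and RPL43B (-0.10), RPL42B (-0.11) and RPL2B (-0.15) differed least. RPL2A had the highest wild-type value, 1.22, where RPL2B had 0.34. Over the members rho of the difference with the wild-type value was -0.86. With the sign of the wild-type column turned the median difference would be 0.88 with no member lower, against 42.7% of all genes, and 17 at least 2-fold higher, against 1.2% of all genes.

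For Brr2 the wild-type median at 37C was 1.48 and the SUB2_85 median 0.48, with 39 (3.35% of all genes) and 5 (2.1%) members at 2-fold or more. All 47 were again lower, against 48.9%, and 24 were at least 2-fold lower, against 2.61%, with a median difference of -1.03. RPL39 went from 1.83 to -0.05, RPL2A from 2.88 to 1.05 and RPL20A from 2.58 to 0.78. RPL43A (-0.22), RPL6A (-0.27) and RPL33B (-0.34) differed least. Over the members rho of the difference with the wild-type value was -0.55. The copies RPL37A and RPL37B ended at -0.49 and -0.60 from 0.86 each. Large subunit genes without an intron had median differences of -0.45 for Lea1 and -0.40 for Brr2. Small subunit genes with an intron had -0.57 for Lea1 and -0.92 for Brr2.

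The wild-type columns at 37C also stood far from the profiles in rich medium, and in opposite directions for both factors. For Brr2 the member median was 0.34 in rich medium and 1.48 at 37C, and 28 of 47 were at least 2-fold higher against 3.44% of all genes. RPL32 (1.84), RPL20B (1.81) and RPL20A (1.78) were highest in difference. RPL16B (-2.78) and RPL31B (-2.52) were lower at 37C. Large subunit genes without an intron had 0.61 and 0.70. Small subunit genes with an intron had 0.40 and 1.50 for Brr2, and 1.62 and 0.74 for Lea1, close to the members. Lea1 over the members was 1.65 in rich medium and 0.78 at 37C, with 22 of 47 at least 2-fold lower against 3.39% of all genes, led by RPL2B (-2.34), RPL32 (-1.64) and RPL2A (-1.63). With the 95th percentile of all genes as the line, members above it numbered 44 (4.97% of all genes) and 42 (5.01%) for Lea1 in rich medium and at 37C, and 9 and 43 for Brr2 (5.01% each). The median percentile of the members for Lea1 was 98.5 in rich medium and 98.8 at 37C, while for Brr2 it went from 86.4 to 98.3. Over the members rho of the difference with the rich medium value was -0.90 for Lea1 and -0.03 for Brr2. After quantile normalisation the Lea1 difference was 0.19 instead of -0.94. With the sign of the 37C column turned it would be -2.39. Medium, temperature and SUB2 strain background differ between these columns and cannot be told apart, and the 37C columns are the controls of the SUB2_85 comparisons.

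**Figure D5:**
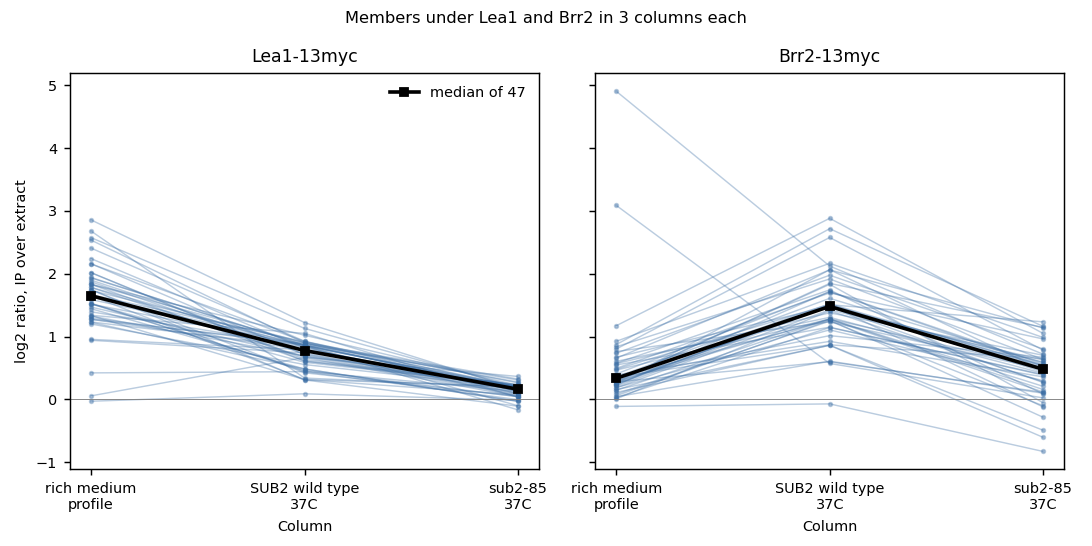
Log2 ratio of each member (thin lines) and their median (black) for Lea1 and Brr2 in rich medium, in SUB2 wild type at 37C and in SUB2_85 at 37C. Lea1 medians step down from 1.65 to 0.78 and 0.16, and Brr2 medians go from 0.34 to 1.48 and back to 0.48, with RPL16B and RPL31B as the 2 high points under Brr2 in rich medium.

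Genes next to the members that code for no ribosomal protein were lower for Prp40. The 81 such neighbours with a Prp40 value had a median of 0.12, with 6 at 2-fold or more, against 3.39% of all genes. For Lea1 their median was 0.04, for Brr2 0.04 against the members' 0.34, and for Sub2 0.03 against -0.02. Of the members, 6 lie next to another ribosomal protein gene, among them RPL18B beside RPS19B, and RPL13A and RPL13B beside RPS16B and RPS16A. Outside ribosomal protein genes, the 5 genes whose values over 24 columns were most like the members' median were RPO26, SFT1, YBR138C, NOG2 and TEF4. Pearson's r was 0.92, 0.92, 0.90, 0.89 and 0.89 in that order, over 5497 genes searched. RPO26, SFT1, NOG2 and TEF4 are known to carry an intron, and SFT1 is the neighbour of RPL14A.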

How the data were processed

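Chromatin DNA that came down with each factor, and input DNA, went through linker-mediated PCR and Klenow labelling. Dyes were reversed in 1 or more replicates and spotted gene arrays were read on a GenePix 4000B, per the labels' protocols and the design text. The authors joined replicates in Rosetta Resolver and deposited 1 log2 ratio per probe and column. That the unit is log2 follows from the values, which stop at 6.64 on either side, a 100-fold ratio. No source used here states the ratio's direction or any normalisation. Of 6284 probes, 5674 matched a nuclear protein-coding gene of the RefSeq table (R64), used for names and neighbours only. The array number limits precision, and no depth exists.

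Python 3.11.15 with pandas 2.3.3 computed medians, ranges, percentiles, counts at a log2 ratio or difference of 1, and differences between columns. With 1 combined column per group no test was made. The steps were tested on simulated data. Alternatives were column centring, means, scaling by robust SD, quantile normalisation, leaving out values at the limit, turned signs, another control column and a percentile line. Members and lists were chosen with earlier results of these data known. Any member may be named: the text takes the 3 at each end of a column or change, and 5 pairs at each end by mean absolute difference. The 5 genes most like the members are those with the highest Pearson correlation. The values of 1 member enter every count and median but are not reported here by gene, and the plots by gene and by pair leave it out.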

Additional observations from a re-analysis of the deposited data

Results flagged for a closer look

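Lea1 and Brr2, both tagged with 13myc, moved apart over the members between rich medium and 37C in wild type. The median difference was -0.94 for Lea1 and 1.16 for Brr2, and 44 of 47 members had opposite signs for the 2 factors, against 53.3% of all genes. For 20 of them both differences were at least 2-fold, against 1.26% of all genes. After quantile normalisation the medians were 0.19 and 0.86, no longer of opposite sign, and the members' median percentile for Lea1 was 98.5 in rich medium and 98.8 at 37C. The Lea1 median difference was -2.39 with the sign of its 37C column turned. This was picked out because the deposited medians had opposite signs under the same contrast. The 34 intron genes for small subunit proteins had median differences of -0.93 for Lea1 and 1.05 for Brr2, so the pattern was not particular to the members. The difference between the factors was not tested, and each condition holds 1 combined column.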

How the results depend on the processing

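Medians in every column and the changes described were recomputed under the alternatives. Of 141 recomputed values, 111 moved by less than 0.24, 25 moved by more and 5 reversed. The line of 0.24 is the pooled SD of the members' median between unperturbed columns of Prp40-9myc and of Mud2-13myc. Those columns differ in fixation, so the line mixes that difference with error. Centring each column, taking means and leaving out values at the limit moved none that far. Quantile normalisation, which gives all columns 1 spread, moved 22. Levels then became 1.64 for Prp40, 1.49 for BBP, 1.02 for Mud2, 1.30 for Lea1, 1.49 for Prp11, 1.50 for Prp5, 0.91 for Spt5 and 0.44 for the polymerase. They became 0.74 for the Prp40-3myc control, 0.78 for spt5_194, 1.53 without the cap-binding complex, 1.46 and 0.91 for Prp40 without and with RNase, 1.55 for Mud2 without RNase, and 1.41 and 1.21 for Lea1 and Brr2 in wild type at 37C. Differences became -0.83 with 6-azauracil, -0.68 and -1.55 with RNase for Prp40 and Mud2, -1.03 and -0.79 in SUB2_85 for Lea1 and Brr2, and 0.86 for Brr2 at 37C against rich medium. The same Lea1 difference reversed to 0.19. Alternatives for the 37C against rich medium differences, and leaving out RPL43B or RPL31B, were chosen after seeing the data. The cause was not tested. Turned signs gave levels of -2.26 for Mud2, -0.54 for spt5_194 and -0.78 for Lea1 in wild type, and differences of -0.97 for spt5_194, 0.88 for Lea1 in SUB2_85 and -2.39 for Lea1 at 37C. Against Prp40 after short fixation the cap-binding difference was -0.57 instead of -0.15.

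Counts at 2-fold depend on the spread of a column. With the 95th percentile of all genes as the line, they went from 22 to 44 for BBP, 22 to 43 for Prp11, 25 to 43 for Prp5, 3 to 9 for Brr2, 10 to 4 for the polymerase, 1 to 25 for the Prp40-3myc control, 1 to 33 for spt5_194, 0 to 28 for Prp40 with RNase, 4 to 42 and 0 to 9 for Lea1 at 37C in wild type and SUB2_85, and 5 to 10 for Brr2 in SUB2_85. With the sign turned, counts at 2-fold went to 0 from 44 for Mud2, 1 for spt5_194 and 4 for Lea1 in wild type at 37C. No paired analysis was possible because each column combines its replicates. No replicate could be left out for the same reason.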
